A study of Mus musculus with 9 samples.

Results

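The genes described here are 10 widely used markers of the blood vessel lining: Pecam1, Cdh5, Kdr, Tek, Tie1, Emcn, Esam, Eng, Vwf and Egfl7. They were chosen by name as a gauge of vessels in laser-captured prostate lesions of mice, and make up 10 of the 22180 genes with a single symbol on the array. Each was read by 1 probe set. Male mice of mixed strain, 12 months old, gave the prostates, which were fixed in formalin and embedded in paraffin, and 1 array was run per laser capture. The first group held solid tumours of mice with PbCre and 1 T-3Mb-Erg allele (T-3Mb-Erg/+), the second held HG-PIN (high-grade prostatic intraepithelial neoplasia, in which dysplastic epithelium fills the gland from within) of the same 3 mice, and the third held HG-PIN of 3 PbCre mice without it. The last group, called control HG-PIN, lacks the T-3Mb-Erg allele but is otherwise labelled with the same genotype, so no group is normal prostate. PbCre expresses Cre recombinase from a probasin promoter, which is active in prostate epithelium and not known for activity in vessels. Each group had 3 arrays, from 6 mice in all, and replicates 1 to 3 of the tumour and T-3Mb-Erg HG-PIN groups are mice 1 to 3.

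Endothelial cells line every vessel. They hold together through junctional adhesion molecules, sense growth factors of the VEGF and angiopoietin families through receptor tyrosine kinases, and store clotting and adhesion proteins for release. In the prostate, capillaries run in the stroma around the glands, outside the epithelium that HG-PIN arises from, whereas a solid tumour carries vessels among its own cells. In captured tissue, fewer endothelial cells and less RNA per endothelial cell cannot be told apart.

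Most of the endothelial genes were dim in all 3 groups. All values below are log2 of the deposited intensity, on which 1 unit is a 2-fold difference, and levels of different genes are not set against each other because probe sets differ in brightness. A gauge of background was taken from 1394 olfactory and vomeronasal receptor genes, most of which are known from sensory neurons of the nose, and was adopted with results of these arrays in view. The 95th percentile of these receptor genes ran from 4.49 to 5.09 on tumour arrays, from 4.48 to 4.88 on T-3Mb-Erg HG-PIN arrays and from 4.87 to 5.28 on control HG-PIN arrays. Of the 10 endothelial genes, 6 exceeded the percentile of their own array at least once, and Tek, Tie1, Esam and Vwf did so on no array. Cdh5 exceeded the percentile on 4 arrays, Pecam1 on 3, and Kdr, Emcn, Eng and Egfl7 on 1 each. Tumour replicate 3 had 6 of the 10 genes above it, while every control HG-PIN array had 0. The percentile itself was 4.49 on tumour replicate 3 and 4.87 to 5.28 on control arrays, so these counts do not compare levels. On control HG-PIN replicate 2, Cdh5 (4.76) and Vwf (4.77) lay below their own percentile but above 4.49. Across the 10 genes, the mean difference from each gene's own 9-array average was 0.12, 0.12 and 0.73 on the tumour arrays. It was -0.31, -0.04 and -0.04 on the T-3Mb-Erg HG-PIN arrays, and -0.35, 0.07 and -0.32 on the control HG-PIN arrays. Tumour replicate 3 was thus the highest array, and the other 2 tumour arrays exceeded the highest control array, replicate 2, by little.

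**Figure D1:**
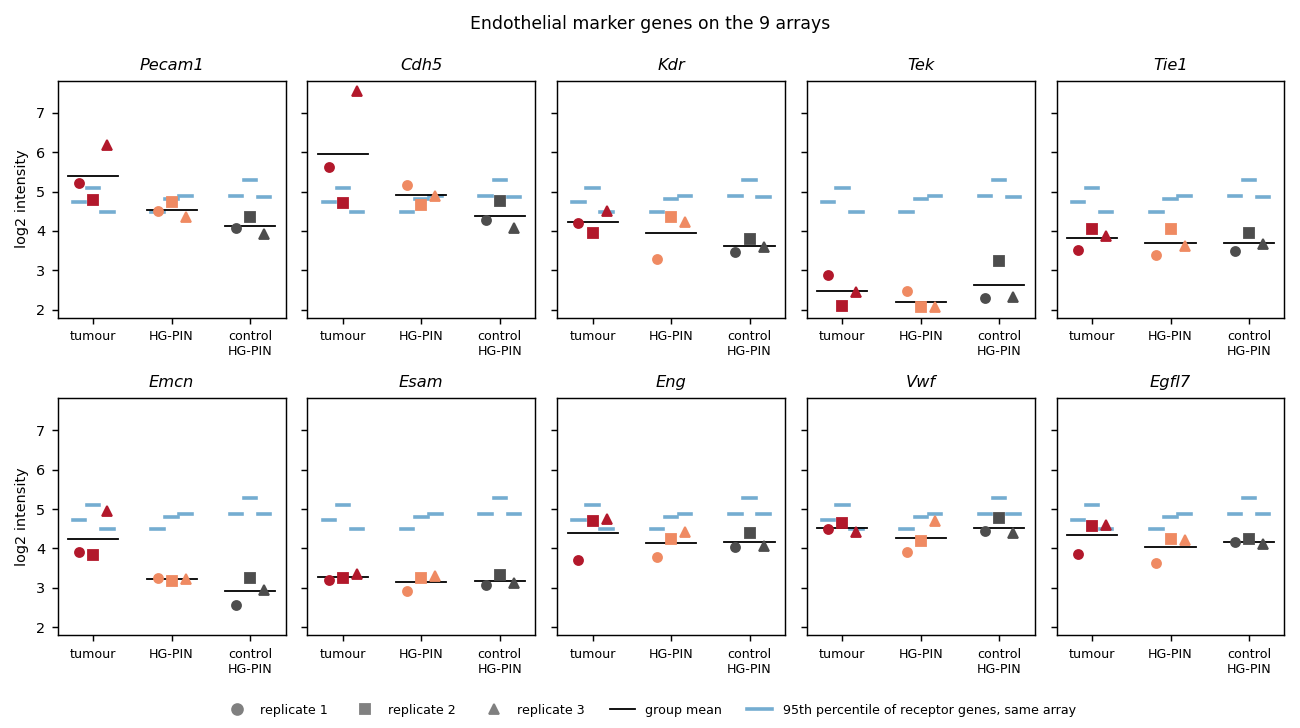
Log2 intensity (vertical axis) of each endothelial gene on the 9 arrays, by group, with circles, squares and triangles for replicates 1, 2 and 3, black lines for group means and blue lines for the 95th percentile of receptor genes on the same array. Cdh5, Pecam1 and Emcn have their highest point on tumour replicate 3 (7.55, 6.19 and 4.95), and Tek, Tie1, Esam and Vwf lie below the blue line on every array.

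Promoters were read for the members with the highest and the lowest tumour against HG-PIN differences that the RefSeq promoter table (build GRCm38.p6) held. Each window runs from 250 bases before to 50 bases after the start site. They are shown because endothelial genes are known for binding sites of ETS-family factors, of which Erg is one, and the letters AGGAAG, an ETS core, were searched on both strands. Capitals mark AGGAAG and its reverse complement CTTCCT. The windows are Emcn (chr3:137340828-137341127, plus strand), Egfl7 at the first of its 3 listed start sites (chr2:26580833-26581132, plus strand), Eng (chr2:32646345-32646644, plus strand) and Tie1 (chr4:118489800-118490099, minus strand).
Emcn: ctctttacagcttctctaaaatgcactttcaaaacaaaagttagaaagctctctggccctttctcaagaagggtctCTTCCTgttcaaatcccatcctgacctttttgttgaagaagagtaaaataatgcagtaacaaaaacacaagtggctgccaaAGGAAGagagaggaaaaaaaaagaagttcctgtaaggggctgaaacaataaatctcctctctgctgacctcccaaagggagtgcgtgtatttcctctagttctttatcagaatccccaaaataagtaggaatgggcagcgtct
Egfl7: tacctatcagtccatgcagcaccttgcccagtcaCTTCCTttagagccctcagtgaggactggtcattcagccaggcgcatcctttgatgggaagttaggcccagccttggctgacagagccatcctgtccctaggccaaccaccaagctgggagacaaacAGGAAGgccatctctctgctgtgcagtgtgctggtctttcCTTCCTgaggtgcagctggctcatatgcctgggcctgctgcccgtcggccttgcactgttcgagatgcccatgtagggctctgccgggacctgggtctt
Eng: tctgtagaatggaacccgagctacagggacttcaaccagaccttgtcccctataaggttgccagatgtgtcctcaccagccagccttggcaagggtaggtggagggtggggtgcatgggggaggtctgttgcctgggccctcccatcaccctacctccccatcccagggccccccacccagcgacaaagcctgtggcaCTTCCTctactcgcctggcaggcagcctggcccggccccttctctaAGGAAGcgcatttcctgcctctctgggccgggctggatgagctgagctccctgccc
Tie1: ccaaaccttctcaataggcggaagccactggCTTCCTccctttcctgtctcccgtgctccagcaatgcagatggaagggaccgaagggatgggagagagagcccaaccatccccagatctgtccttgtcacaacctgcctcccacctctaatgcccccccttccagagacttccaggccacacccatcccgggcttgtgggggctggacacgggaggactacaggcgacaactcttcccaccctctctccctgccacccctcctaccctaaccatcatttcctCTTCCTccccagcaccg
The Emcn and Eng windows each held 1 AGGAAG and 1 CTTCCT, the Egfl7 window held 1 and 2, and the Tie1 window held 0 and 2. The table held 8 windows of 6 of the endothelial genes, and 5 of the 8 had the motif on either strand. Of all 32851 promoter windows in the table, 35.4% had it. The table held no window of Cdh5 or Pecam1, so Egfl7, at a difference of 0.31, was printed as a high member beside Eng, at 0.25. Windows of Kdr and Tek and the third of Egfl7, not printed, had no match. A match describes the letters only, and it was present both in Emcn, with a high tumour difference, and in Tie1, with a low one.

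The first comparison was made within the T-3Mb-Erg mice, between the solid tumour and the HG-PIN of each animal. Among the surface molecules of endothelial junctions and membranes, Cdh5, Emcn and Pecam1 had the largest tumour differences, and none passed the test across genes. Cdh5, which encodes VE-cadherin, the adhesion protein of endothelial junctions, had log2 levels of 5.62, 4.71 and 7.55 in tumours, against 5.16, 4.67 and 4.89 in T-3Mb-Erg HG-PIN. Tumour replicate 3 stood far above every other array, at an intensity of 187 against 25.5 to 35.9 in T-3Mb-Erg HG-PIN, while tumour replicate 2 lay within the HG-PIN range. The difference was 1.05 on the log2 scale (SE 0.56, limma adjusted p = 0.755), and it was 0.25 without tumour replicate 3. Pecam1, an adhesion molecule also known as CD31, had log2 levels of 5.22, 4.78 and 6.19 in tumours, against 4.50, 4.74 and 4.36 in T-3Mb-Erg HG-PIN. The groups did not overlap, although tumour replicate 2 and HG-PIN replicate 2 were nearly level, and the difference was 0.87 (SE 0.33, limma adjusted p = 0.506). Without tumour replicate 3 it was 0.44. Emcn, a sialomucin of capillary and venous endothelium, had log2 levels of 3.90, 3.84 and 4.95 in tumours, against 3.25, 3.18 and 3.21 in T-3Mb-Erg HG-PIN. Here all 3 tumour arrays stood above all 3 HG-PIN arrays, and the difference was 1.02 (2.03-fold, SE 0.30, 95% interval 0.36 to 1.68, limma adjusted p = 0.299). It was 0.66 without tumour replicate 3 and 0.48 on the log2(value + 16) scale, which shrinks differences of dim genes. Only that tumour array had Emcn above its receptor percentile, and the part of background in the Emcn difference was not tested.

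The receptors for vascular growth factors showed smaller differences. Kdr, the main signalling receptor for VEGF-A, had log2 levels of 4.21, 3.95 and 4.52 in tumours, against 3.29, 4.34 and 4.22 in T-3Mb-Erg HG-PIN. The groups overlapped, and the difference of 0.27 (SE 0.28, limma adjusted p = 0.963) turned to -0.057 without T-3Mb-Erg HG-PIN replicate 1. Tie1, an orphan receptor that works with the angiopoietin receptor, had 3.51, 4.05 and 3.87 in tumours, against 3.40, 4.04 and 3.62 in T-3Mb-Erg HG-PIN. Its difference was 0.12 (SE 0.24, limma adjusted p = 0.995), with a 95% interval of -0.40 to 0.65. Eng, the co-receptor endoglin of the TGF-beta and BMP pathway, had 3.70, 4.71 and 4.75 in tumours, against 3.77, 4.23 and 4.42 in T-3Mb-Erg HG-PIN. Replicate 1 was the lowest array of both groups, and the difference was 0.25 (SE 0.30, limma adjusted p = 0.978). It was 0.0066 without T-3Mb-Erg HG-PIN replicate 1, and 0.62 without tumour replicate 1. Tek, the angiopoietin receptor Tie2, lay below the low-signal filter, with 2.88, 2.09 and 2.44 in tumours and 2.47, 2.07 and 2.07 in T-3Mb-Erg HG-PIN.

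The secreted products and the remaining junction molecule, like the receptors, had smaller differences than Cdh5, Emcn and Pecam1. Vwf, the clotting glycoprotein von Willebrand factor, had log2 levels of 4.50, 4.64 and 4.42 in tumours, against 3.91, 4.19 and 4.70 in T-3Mb-Erg HG-PIN. Egfl7, a secreted protein of vessel assembly, had 3.85, 4.56 and 4.59 in tumours, against 3.63, 4.24 and 4.20 in T-3Mb-Erg HG-PIN. Both genes overlapped between the groups, with differences of 0.25 (SE 0.24) for Vwf and 0.31 (SE 0.25) for Egfl7. Without T-3Mb-Erg HG-PIN replicate 1 these were 0.073 for Vwf and 0.072 for Egfl7, and leaving out single arrays gave up to 0.49 for Vwf (without T-3Mb-Erg HG-PIN replicate 3) and 0.58 for Egfl7 (without tumour replicate 1). Esam, an adhesion molecule of tight junctions, was below the filter, with 3.20, 3.26 and 3.36 in tumours and 2.92, 3.24 and 3.30 in T-3Mb-Erg HG-PIN. Fitted without the filter, the differences of Tek and Esam were 0.27 and 0.12.

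Of the 8 endothelial genes that passed the filter on low signal, limma called 0 in the tumour comparison at a Benjamini-Hochberg adjusted p under 0.05, where it called 0.283% of all 16635 genes tested (0.0661% higher and 0.216% lower). Their adjusted p values ran from 0.299 for Emcn to 0.995 for Tie1. At an unadjusted p under 0.05, 2 of the 8, Pecam1 and Emcn, were higher and 0 lower, against 3.67% and 3.98% of all genes. The same 2 were the ones whose tumour arrays all exceeded the HG-PIN arrays, against 4.97% of all genes, and 0 of the 8 lay wholly below, against 6.43%. All 8 differences were above 0, as were 48.9% of all genes, but with array quality weights those of Tie1, Eng and Egfl7 were below 0. The median of the 8 was 0.29 and that of all genes tested was -0.01. These 8 are the genes with signal above the filter and do not stand for all 10.

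**Figure D2:**
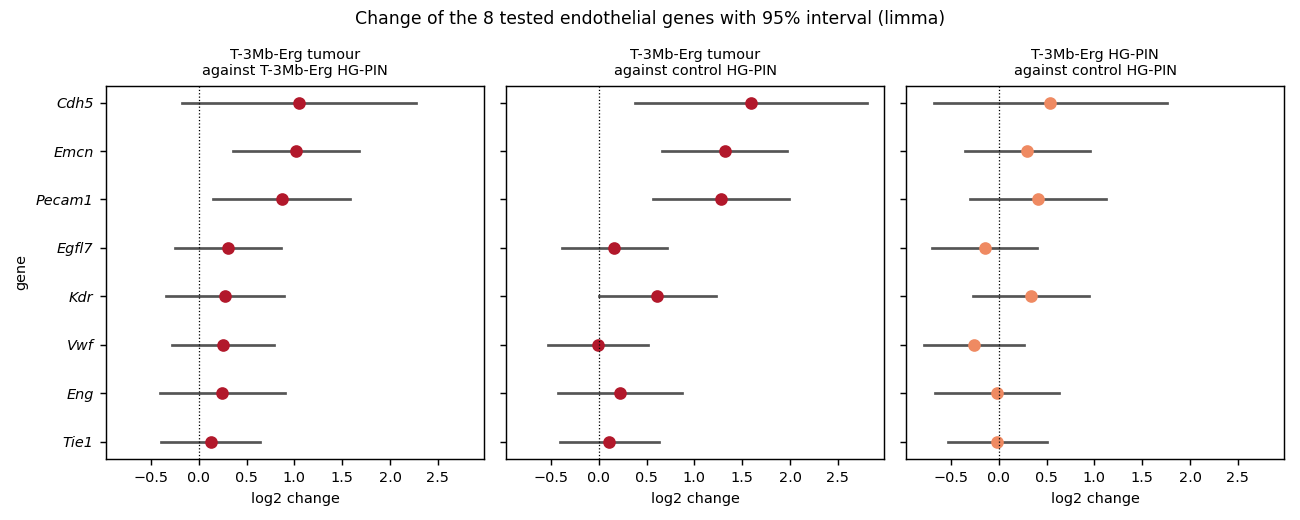
Fitted log2 change (horizontal axis) of the 8 tested endothelial genes in each comparison, with bars for the 95% interval from limma; genes run down the page by their tumour against T-3Mb-Erg HG-PIN change. Intervals of Emcn and Pecam1 lie above 0 in both comparisons with tumours and include 0 between the HG-PIN groups, and no gene passed the adjusted threshold in any panel.

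Within single mice, the differences between tumour and HG-PIN were uneven. In mouse 3 they were 2.66 for Cdh5, 1.84 for Pecam1 and 1.75 for Emcn. In mouse 1 the same genes gave 0.45, 0.72 and 0.65, and in mouse 2 they gave 0.04, 0.04 and 0.66. Emcn was therefore at least 0.65 higher in the tumour of each mouse, whereas Cdh5 and Pecam1 were nearly level between the lesions of mouse 2. Of the 8 tested genes, 5 were higher in the tumour of 3 of 3 mice (Pecam1, Cdh5, Tie1, Emcn and Egfl7), as were 11.5% of all genes tested. With Tek and Esam the count was 7 of 10, but in mouse 2 the differences of Tie1, Tek and Esam were 0.01, 0.02 and 0.02. Kdr was lower in the tumour of mouse 2 (-0.39), Eng in mouse 1 (-0.07) and Vwf in mouse 3 (-0.285).

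**Figure D3:**
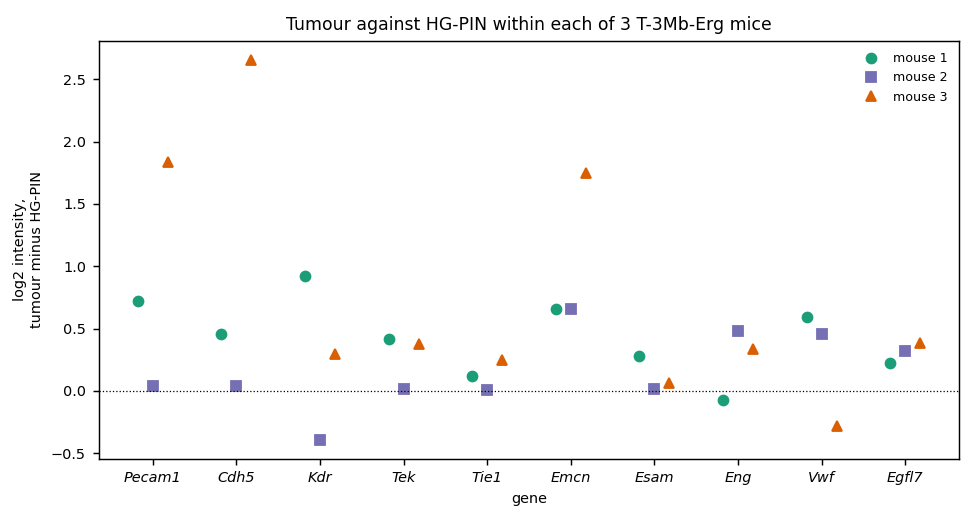
Log2 intensity of the tumour minus that of HG-PIN (vertical axis) for each endothelial gene in mice 1, 2 and 3 (circles, squares and triangles). Mouse 3 has the highest points, for Cdh5 (2.66), Pecam1 (1.84) and Emcn (1.75), and the points of mouse 2 lie near 0 for Pecam1, Cdh5, Tek, Tie1 and Esam.

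The second comparison was between the genotypes at 1 lesion, T-3Mb-Erg HG-PIN against control HG-PIN. It shares the T-3Mb-Erg HG-PIN arrays with the first comparison. No tested endothelial gene passed the adjusted threshold here, and their differences ran from -0.26 to 0.54. Pecam1 had 4.50, 4.74 and 4.36 in T-3Mb-Erg HG-PIN, against 4.08, 4.34 and 3.93 in control HG-PIN, with a gap between the nearest arrays that was smaller than the spread within either group. Cdh5 had 5.16, 4.67 and 4.89 in T-3Mb-Erg HG-PIN, against 4.28, 4.76 and 4.07 in control HG-PIN, where replicate 2 lay inside the T-3Mb-Erg range. The differences were 0.41 (SE 0.33) for Pecam1 and 0.54 (SE 0.56) for Cdh5, each with a limma adjusted p of 0.998. Emcn had 3.25, 3.18 and 3.21 in T-3Mb-Erg HG-PIN, against 2.57, 3.24 and 2.93 in control HG-PIN (difference 0.30). Kdr had 3.29, 4.34 and 4.22 in T-3Mb-Erg HG-PIN, against 3.46, 3.80 and 3.59 in control HG-PIN (difference 0.34). The arrays of both genes overlapped between the genotypes.

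The other receptors and secreted products were on both sides of 0. Tie1 had 3.40, 4.04 and 3.62 in T-3Mb-Erg HG-PIN, against 3.48, 3.95 and 3.68 in control HG-PIN (difference -0.01). Eng had 3.77, 4.23 and 4.42 in T-3Mb-Erg HG-PIN, against 4.03, 4.40 and 4.05 in control HG-PIN (difference -0.02). For both, the control arrays lay inside the range of the T-3Mb-Erg arrays. Egfl7 had 3.63, 4.24 and 4.20 in T-3Mb-Erg HG-PIN, against 4.15, 4.25 and 4.12 in control HG-PIN (difference -0.15). Vwf had 3.91, 4.19 and 4.70 in T-3Mb-Erg HG-PIN, against 4.44, 4.77 and 4.38 in control HG-PIN. Its groups overlapped, with a difference of -0.26 and a 95% interval of -0.79 to 0.27. Control HG-PIN replicate 2 was the highest control array for all 10 genes, and it also had the highest receptor percentile of the 9 arrays, 5.28. Its part in these differences was not tested. Tek had 2.47, 2.07 and 2.07 in T-3Mb-Erg HG-PIN, against 2.30, 3.24 and 2.31 in control HG-PIN, and Esam had 2.92, 3.24 and 3.30 in T-3Mb-Erg HG-PIN, against 3.08, 3.32 and 3.13 in control HG-PIN. Both lay under the filter, and fitted without it their differences were -0.41 for Tek, where control replicate 2 was the highest of the 6 arrays, and -0.02 for Esam.

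Between the HG-PIN groups, limma called 0 of the 8 endothelial genes, where it called 0.0% of all genes tested. At an unadjusted p under 0.05 the count was also 0 of 8, against 1.83% of all genes higher and 2.27% lower. Pecam1 was the 1 gene of 8 without overlap, against 4.86% of all genes on the higher side and 5.25% on the lower. Differences above 0 were found for 4 of the 8 and for 49.5% of all genes, with medians of 0.14 for the 8 and -0.00 for all genes. Across all genes the 95% interval of single genes, which is not adjusted, had a median half-width of 0.59 in this comparison. It is not a detection limit of the adjusted test, which called 0 genes of any size here. Differences smaller than this, and larger ones too, could go uncalled with 3 arrays a group.

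The third comparison set tumours against control HG-PIN. Lesion and genotype differ together in it, and it shares its arrays with the other 2 comparisons. Pecam1 and Emcn were again without overlap, with differences of 1.28 (SE 0.33, limma adjusted p = 0.159) and 1.32 (SE 0.30, limma adjusted p = 0.112). Cdh5 had the largest difference of the endothelial genes, 1.59, with the widest interval, 0.38 to 2.81 (limma adjusted p = 0.340). Its tumour replicate 2, at 4.71, lay below control HG-PIN replicate 2, at 4.76. Kdr was also without overlap, at 0.61 (limma adjusted p = 0.536), since the lowest tumour array had 3.95 and the highest control array had 3.80. The other differences were 0.23 for Eng, 0.16 for Egfl7, 0.11 for Tie1 and -0.01 for Vwf.

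In this comparison limma called 0 of 8 endothelial genes at an adjusted p under 0.05, against 0.18% of all genes (0.108% higher and 0.0721% lower). With the unadjusted p, 4 of the 8 were higher at 0.05 (Pecam1, Cdh5, Kdr and Emcn), against 4.74% of all genes. The 3 without overlap stand against 6.2% of all genes, with 0 on the lower side against 7.51%. Differences above 0 were found for 7 of the 8 and for 46.3% of all genes, but with array quality weights those of Tie1, Eng and Egfl7 were below 0 and that of Vwf above it. The medians were 0.42 for the 8 and -0.03 for all genes. In 2 of the settings tried, 3 of the 8 passed. With array quality weights these were Cdh5 (1.62, adjusted p = 0.0307), Emcn (1.25, adjusted p = 0.0103) and Pecam1 (1.29, adjusted p = 0.00932), in a limma fit that called 938 genes in all. Without tumour replicate 2, the same genes passed at 2.24, 1.52 and 1.57 (limma adjusted p = 0.0455, 0.0430 and 0.0338). That fit called 261 genes in all, against 30 with all arrays. Without tumour replicate 3 the differences were 0.79 for Cdh5, 0.95 for Emcn and 0.86 for Pecam1, and none passed. No endothelial gene passed in the other settings, and tumour replicate 2 was the tumour array with the narrowest range of signal (95th percentile of all probe sets 6.15, against 6.49 and 6.65 for the other tumours).

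The endothelial genes did not follow a single pattern over the 9 arrays. Pearson's r was 0.95 between Pecam1 and Cdh5, 0.95 between Pecam1 and Emcn, and 0.92 between Cdh5 and Emcn. Eng and Egfl7 formed another close pair, with an r of 0.94. Vwf had an r of -0.03 with Pecam1 and -0.06 with Cdh5. These values describe 9 arrays that share mice and differ in range, and they carry no test. Tumour replicate 3 was the highest array for Pecam1, Cdh5 and Emcn. Over the other 8 arrays r was 0.83 between Pecam1 and Cdh5, 0.86 between Pecam1 and Emcn, 0.73 between Cdh5 and Emcn, and 0.91 between Eng and Egfl7, while Cdh5 and Egfl7 had an r of -0.49. The level of Vwf also went with the receptor percentile of the array (r = 0.74), while that of Cdh5 (r = -0.59) and Pecam1 (r = -0.50) went against it. The part of the array background in these relations was not tested.

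Outside the list, the genes most like the mean of the 8 tested endothelial genes over the 9 arrays were Loxl1 (Pearson's r = 0.98), Igfbp4 (0.98), Hspg2 (0.97), Tnfaip2 (0.97) and Tmtc1 (0.97). Loxl1, a lysyl oxidase of elastic fibres, had log2 levels of 4.66, 4.85 and 6.70 in tumours, against 3.76, 4.30 and 4.33 in the T-3Mb-Erg HG-PIN arrays and 3.90, 4.47 and 3.50 in control HG-PIN. Its highest array was again tumour replicate 3. Igfbp4, a binding protein of insulin-like growth factors, had 7.40, 7.15 and 10.06 in tumours, against 5.89, 6.77 and 6.30 in the T-3Mb-Erg HG-PIN arrays and 5.48, 6.48 and 5.61 in control HG-PIN. All 5 were picked as the highest r among the genes tested, and all 5 had their highest level on tumour replicate 3. Their r without that array was not taken. None of the 5 passed the tumour against HG-PIN test (limma adjusted p from 0.422 to 0.954).

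A wider list of 23 other endothelial genes had 22 on the array and 20 tested, and limma called 0 of the 20 in each of the 3 comparisons. Between tumours and T-3Mb-Erg HG-PIN, 14 of the 20 differences were above 0, with a median of 0.16. Gpihbp1, the capillary anchor of lipoprotein lipase, had log2 levels of 6.26, 6.30 and 7.21 in tumours, against 6.24, 5.69 and 5.24 in the T-3Mb-Erg HG-PIN arrays and 5.20, 5.48 and 4.83 in control HG-PIN. All 3 tumour arrays were above the other 6, although tumour replicate 1 and T-3Mb-Erg HG-PIN replicate 1 were nearly level. The differences were 0.87 (limma adjusted p = 0.596) against T-3Mb-Erg HG-PIN and 1.42 (limma adjusted p = 0.163) against control HG-PIN. Gpihbp1 was the 1 gene of the 20 wholly above T-3Mb-Erg HG-PIN, against 4.97% of all genes. Selp was the 1 wholly below, against 6.43%, with 3.16, 3.01 and 3.01 in tumours and 3.32, 3.39 and 3.74 in T-3Mb-Erg HG-PIN (difference -0.42). Flt1, another VEGF receptor, had 4.70, 3.87 and 5.21 in tumours, against 3.80, 3.87 and 4.02 in T-3Mb-Erg HG-PIN (difference 0.70, limma adjusted p = 0.645). Tumour replicate 2 was level with HG-PIN here too. Cldn5, the tight junction claudin of endothelium, stood at -0.04, Nos3, the endothelial nitric oxide synthase, at 0.19, and Robo4, a guidance receptor of vessels, at 0.31. Between the HG-PIN groups, the smallest p values in this list belonged to Plvap, a protein of endothelial fenestrae (0.72), and Dll4, a Notch ligand of sprouting vessels (0.58), each with a limma adjusted p of 0.998.

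Of 12 transcription factors used by endothelial cells, all were tested and limma called 0 in each comparison, with 9 of 12 above 0 between tumours and T-3Mb-Erg HG-PIN. Erg, the ETS factor that is also named in the engineered allele, had log2 levels of 4.19, 4.54 and 4.83 in tumours, against 3.68, 4.30 and 3.89 in the T-3Mb-Erg HG-PIN arrays and 3.68, 4.22 and 3.75 in control HG-PIN. The tumour difference was 0.56 (limma adjusted p = 0.628) and the HG-PIN groups differed by 0.08. Which product of the allele the Erg probe set reads is not stated, and its signal may come from epithelium as well as from vessels. Fli1, the related factor, had a tumour difference of 0.19, and Hhex, a homeobox factor, had -0.46 (limma adjusted p = 0.675). Against control HG-PIN, Ets1, a further ETS factor, had differences of 0.58 in tumours and 0.41 in T-3Mb-Erg HG-PIN. Erg had 0.64 in tumours against control HG-PIN, and Hhex had 0.33 between the HG-PIN groups, and none of these passed.

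Among lymphatic endothelial genes, 7 were listed, 6 measured and 5 tested. Pdpn, podoplanin, had log2 levels of 7.25, 6.65 and 7.79 in tumours, against 5.37, 5.47 and 5.24 in the T-3Mb-Erg HG-PIN arrays and 4.51, 5.19 and 4.82 in control HG-PIN. It rose in tumours against control HG-PIN (log2 change 2.39, limma adjusted p = 0.0253), and the difference from T-3Mb-Erg HG-PIN, 1.87, missed the threshold (limma adjusted p = 0.0531). Podoplanin is also made by fibroblasts, basal epithelium and some carcinomas. The other 4 tested lymphatic genes did not go with it, with tumour differences of -0.00 for the hyaluronan receptor Lyve1, -0.02 for the VEGF-C receptor Flt4, 0.04 for Reln and 0.15 for Mmrn1. Between the HG-PIN groups Pdpn stood at 0.52 and Lyve1 at 0.12, each with a limma adjusted p of 0.998.

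Of 12 ligands of endothelial receptors, 6 passed the filter and limma called 0 of them in each comparison. Vegfa, the main growth factor for Kdr and Flt1, had log2 levels of 7.30, 5.003 and 8.89 in tumours, against 5.88, 5.63 and 6.02 in the T-3Mb-Erg HG-PIN arrays and 6.11, 5.14 and 5.59 in control HG-PIN. Tumour replicate 3 was the highest and tumour replicate 2 the lowest of the 9 arrays, and the difference from T-3Mb-Erg HG-PIN was 1.22 (SE 0.74, limma adjusted p = 0.818). Angptl4, a secreted regulator of lipoprotein lipase, stood at 0.41 (limma adjusted p = 0.818). Vegfb, a further VEGF ligand, stood at -0.35 (limma adjusted p = 0.936), with 6.07, 6.22 and 6.21 in tumours, against 6.23, 6.68 and 6.63 in T-3Mb-Erg HG-PIN. It was the 1 of the 6 tested ligands wholly below, against 6.43% of all genes, and 0 of the 6 lay wholly above, against 4.97%. Of the 6 differences 3 were above 0, with a median of 0.02. Against control HG-PIN, the tumour differences were 1.45 for Vegfa and 0.38 for Angptl4 (limma adjusted p = 0.603 and 0.735). Between the HG-PIN groups, Vegfb stood at 0.17 and Gdf2, the endoglin ligand BMP9, at 0.09. Vegfd, Pgf, Apln, Sema3e and the angiopoietins Angpt1 and Angpt2 were below the filter and not tested. Vegfd had 3.69, 3.24 and 3.84 in tumours, against 2.69, 2.69 and 2.74 in T-3Mb-Erg HG-PIN. Pgf had 3.83, 3.07 and 3.81 in tumours, against 2.79, 2.97 and 2.86 in T-3Mb-Erg HG-PIN. The tumour arrays of Vegfd and Pgf all stood above those HG-PIN arrays, and those of the other ligands below the filter overlapped with them. Angpt1 had 3.15, 2.92 and 4.94 in tumours, against 3.13, 2.80 and 2.69 in T-3Mb-Erg HG-PIN. Angpt2 had 3.13, 3.06 and 3.57 in tumours, against 2.39, 3.16 and 2.70 in T-3Mb-Erg HG-PIN.

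Markers of neighbouring cells varied on the same arrays. Of 10 mural cell markers, which label the pericytes around capillaries, 7 were above 0 between tumours and T-3Mb-Erg HG-PIN and limma called 0. Rgs5, a pericyte regulator of G-protein signalling, had 5.98, 5.64 and 7.21 in tumours, against 4.50, 4.38 and 3.89 in T-3Mb-Erg HG-PIN (difference 2.02, limma adjusted p = 0.0531). It had the largest difference of the 10 mural markers, whose median was 0.28. Cspg4, Notch3 and Anpep were below 0, at -0.09, -0.18 and -0.95, and Pdgfrb stood at 0.23. Of 12 fibroblast markers 10 were tested and all 10 were above 0, with 0 called. The mean difference between tumour and HG-PIN in mice 1, 2 and 3 was 0.60, 0.06 and 2.17 for the fibroblast list, 0.31, 0.08 and 0.74 for the mural list and 0.43, 0.16 and 0.76 for the 10 endothelial genes. Mouse 3 was highest and mouse 2 lowest in these 3 lists. The other endothelial genes gave 0.05, 0.10 and 0.28 in mice 1, 2 and 3, with mouse 1 lowest, and the lymphatic genes gave 0.46, 0.51 and 0.21, with mouse 3 lowest. Smooth muscle markers gave -1.95, -0.71 and 0.76 in the same mice. Macrophage markers had 5 of 12 above 0, and the endotoxin co-receptor Cd14 fell by 1.73 (limma adjusted p = 0.0409). The part of these cells in the endothelial values was not tested.

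Epithelial markers went the other way in tumours. All 14 tested were below 0 against T-3Mb-Erg HG-PIN, whereas 48.9% of all genes were above 0. By the limma test 8 of the 14 fell, against 0.216% of all genes, with adjusted p from 0.00436 to 0.0430. These were the adhesion genes Cdh1 and Epcam, keratins Krt8 and Krt15, transcription factors Elf3 and Ehf, claudin Cldn4 and protease St14. The tumour arrays lay wholly below T-3Mb-Erg HG-PIN for 12 of the 14, against 6.43% of all genes. Between 3 and 8 of the 14 exceeded the receptor percentile on the tumour arrays, between 13 and 14 on the T-3Mb-Erg HG-PIN arrays and between 8 and 13 on the control HG-PIN arrays. The part of this difference in the endothelial values was not tested. Against control HG-PIN, Cldn4 alone of the 14 passed (-2.98, limma adjusted p = 0.0253), where 0.0721% of all genes were called lower.

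Blood cells share some of these markers. Platelets and their precursors also make Vwf and Pecam1, and of 10 such markers 8 were measured and 7 tested, with limma calling 0 in each comparison. Their tumour against T-3Mb-Erg HG-PIN differences had a median of 0.03 and lay between -0.39 and 0.08. Between 0 and 2 of the 8 measured platelet markers exceeded the receptor percentile on any array. Of 9 red blood cell markers only 2 were measured, and both lay below that percentile on all arrays.

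**Figure D4:**
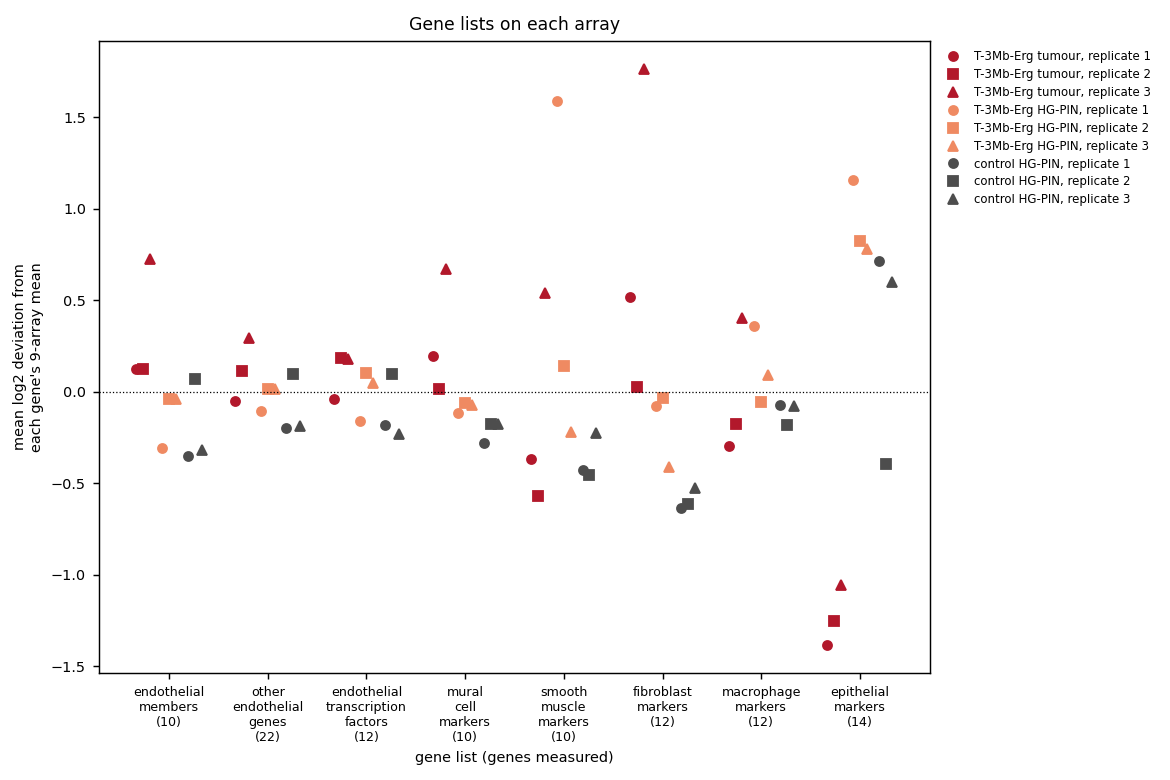
Mean log2 deviation of each gene list from its genes' 9-array means (vertical axis) on each array, with colours for groups and marker shapes for replicates; the number of genes measured stands under each list. Tumour replicate 3 is the highest array for the endothelial members (0.73) and for the fibroblast list (1.76), and the 3 tumour arrays are the lowest for the epithelial list.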

How the data were processed

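RNA from laser-captured lesions was extracted with an RNeasy kit, amplified and labelled with the NuGEN Ovation V2 system, per the labels' protocols, and read on 9 single-colour Affymetrix arrays. The deposited values are intensities on a linear scale for 41345 probe sets, from 1.36 to 13922, with array medians of 13.6 to 15.4. How the authors corrected background, summarised probes and normalized arrays was not given in the sources used here. RNA from fixed tissue is fragmented, which can lower signal. Arrays have no read depth, and 3 arrays per group limit the precision.

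Probe sets were named from the platform annotation, updated by Entrez identifier with RefSeq (GRCm38.p6): 23521 had 1 symbol (23328 matched), 1814 several and 16010 none. The brightest probe set was kept for each of 22180 genes, of which 1082 had more than 1. Deposited intensities were converted to log2 with no pseudocount, and the lowest 25% of genes by mean (below 3.25) were left out, which removed Tek and Esam and left 16635. The filter uses the mean over all groups.

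limma 3.58.1 in R 4.3.3 was fitted to all 9 arrays, with a mean trend in the variance, mouse as a random block (consensus correlation -0.01) and Benjamini-Hochberg adjustment over all genes tested. The labels' mouse identifiers pair tumour and HG-PIN. Deviations of the paired arrays from their group means correlated at 0.17, 0.10 and -0.30. The code was tested on simulated data. Replicates are separate mice. A further part of the genotype, common to all groups, is not reported here.

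Members and lists were chosen with earlier results of these data known. Named were all 10 members, called genes of the other lists, the 2 smallest p values per endothelial or ligand list, a few fixed genes (Erg, Fli1, Flt1, Cldn5, Nos3, Robo4, Vegfa, Angpt1 and Angpt2) and the 5 genes most like the members. Rgs5 and the values of single genes beyond this rule were chosen after their values were seen. Listed genes that the annotation did not name, such as Rasip1, Ccl21a and Krt5, were not analysed here. Alternatives were other normalizations, filters, log scales, probe set rules, array weights, the array range as a term, other mouse blocks, only 6 arrays, and leaving out each array.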

Additional observations from a re-analysis of the deposited data

How the results depend on the processing

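Of 455 values of single endothelial genes under 20 alternative settings, 419 kept their direction and side of the threshold, 30 reversed and 6 passed the threshold, which were Cdh5, Emcn and Pecam1 for tumours against control HG-PIN, with array quality weights and without tumour replicate 2. The count called in that comparison was 3 in those settings, where 938 and 261 genes in all were called. It ran from 0 to 3 as single arrays were left out, and it was 0 in all settings for the other comparisons. With mouse as fixed replicate block, 0 endothelial genes and 26 genes in all were called between tumours and T-3Mb-Erg HG-PIN, and with no replicate block 0 and 49, against 0 and 47 with the random block.

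As single arrays were left out, the median over endothelial genes ran from 0.073 to 0.60 for tumours against T-3Mb-Erg HG-PIN, from 0.02 to 0.27 between the HG-PIN groups and from 0.31 to 0.64 for tumours against control HG-PIN. The last was 0.19 with no filter on low signal, which adds Tek and Esam. The median between the HG-PIN groups, 0.14 as reported, was -0.017 with no filter and -0.021 with the lowest 50% removed. On the log2(value + 16) scale, the Emcn differences were 0.48 for tumours against T-3Mb-Erg HG-PIN and 0.58 against control HG-PIN. Genes near 0 changed sign. With array quality weights, the tumour against T-3Mb-Erg HG-PIN differences were -0.075 for Egfl7, -0.23 for Eng and -0.18 for Tie1, those against control HG-PIN were -0.10, -0.12 and -0.0082 for the same genes and 0.045 for Vwf, and those between the HG-PIN groups were 0.11 for Eng and 0.17 for Tie1. Between the HG-PIN groups, Eng was 0.00 (0.0035) with array medians centred and 0.018 with array range as a term, and Tie1 was 0.01 (0.0101 and 0.0099) with medians centred and quantile normalization and 0.020 with the range term. For tumours against control HG-PIN, Vwf was 0.04 (0.0351) with medians centred, 0.056 with the range term and 0.00 (0.0036) with quantile normalization. Leaving out single arrays gave ranges across 0 between the HG-PIN groups for Egfl7 (-0.28 to 0.091), Eng (-0.11 to 0.22) and Tie1 (-0.22 to 0.16). It did so between tumours and T-3Mb-Erg HG-PIN for Kdr (-0.057 to 0.44) and Tie1 (-0.045 to 0.33), and against control HG-PIN for Tie1 (-0.046 to 0.28) and Vwf (-0.081 to 0.11). The cause was not tested.

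Over all genes, the count called ran from 18 to 405 in the other settings and from 0 to 110 without single arrays for tumours against T-3Mb-Erg HG-PIN (47 as reported). It ran from 0 to 9 and from 0 to 6 between the HG-PIN groups (0 as reported), and from 7 to 938 and from 0 to 261 for tumours against control HG-PIN (30 as reported). Signal near background and 3 arrays a group limit what these arrays show for endothelial genes.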
